A study of Homo sapiens with 60 samples.

Results

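Ginseng extract at its high dose was compared with vehicle in SW1783, a cell line established from a human astrocytoma, a tumour of the glial lineage of the brain. The comparison was chosen by treatment and not by any measured value. It took the 3 libraries of cells given a water extract of Panax Ginseng at 500 µg/mL (replicates 1 to 3) and the 3 libraries of cells given the DMSO vehicle, 6 of the 60 libraries in the series. The culture medium was Leibovitz's L-15 with serum for every group, and RNA was taken after 24 h of treatment. The sample labels give the vehicle as 0.1% DMSO and the series text gives 2%; no DMSO content was recorded for the extract wells. The same extract at 100 µg/mL (medium dose) and 20 µg/mL (low dose), 3 libraries each, and the water extracts of Poria Cocos and Glycyrrhizae Radix (licorice) at 500 µg/mL, 3 libraries each, served to show where the high dose of ginseng differed. One cell line stands for the tissue, and the sources do not say whether replicates were separate cultures. Each p-value therefore reflects only the spread among replicate libraries, which may be technical. Unless another fit is named, that spread was estimated over all 60 libraries.

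L-15 medium is made with galactose in place of glucose, which cells use slowly. Cells sense sugar inside the cell through the transcription factors MondoA (gene MLXIP) and ChREBP (gene MLXIPL) with their partner MLX, which bind paired E-box motifs known as carbohydrate response elements and switch on TXNIP and ARRDC4. The endoplasmic reticulum (ER), where secreted and membrane proteins are folded, has its own sensors, IRE1, PERK and ATF6. When folding capacity is short they raise chaperones such as HSPA5 (BiP), the splice-activated factor XBP1 and, through PERK and ATF4, stress genes such as DDIT3 (CHOP). Several of the largest changes of this comparison were in these groups.

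Motifs of both kinds were located in promoters of genes that changed. In the RefSeq promoter windows of GRCh38.p14, which run from 250 bases before to 50 after each annotated start (300 bases), 3 motifs were searched on both strands. They were the carbohydrate response element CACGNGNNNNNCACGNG, the ER stress element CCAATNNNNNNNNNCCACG and the ER stress element II, which is ATTGG and CCACG with 1 base between them. They stood in 0.057%, 0.0769% and 0.0541% of 35116 windows, in that order. Both ER motifs hold CCACG, and no gene of the ER list held both. Of the 7 glucose-sensing genes with a window, TXNIP alone held the carbohydrate element, from 88 to 72 bases before its start. Of the 19 ER genes with a window, 7 held the ER stress element (CALR, CANX, CRELD2, HSP90B1, HSPA5, PDIA6 and XBP1) and 3 held element II (HERPUD1, HYOU1 and SDF2L1). A match is a description of letters and not evidence of a bound factor. The stretches of 110 bases that lie before the annotated transcripts of the genes with the largest rise and the largest fall among genes of at least 5 CPM, and of BiP, are shown for that reason, each 5′ to 3′ on the gene's strand with the matched motif in capitals. Their positions are chr1:145996601-145996710 (minus strand) for TXNIP, chr9:125241344-125241453 (minus strand) for HSPA5 and chr16:56931938-56932047 (plus strand) for HERPUD1.
TXNIP: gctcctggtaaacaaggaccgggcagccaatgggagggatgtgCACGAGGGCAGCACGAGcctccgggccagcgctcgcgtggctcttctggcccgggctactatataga
HSPA5: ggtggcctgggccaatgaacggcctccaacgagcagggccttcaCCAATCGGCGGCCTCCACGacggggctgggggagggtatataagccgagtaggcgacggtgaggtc
HERPUD1: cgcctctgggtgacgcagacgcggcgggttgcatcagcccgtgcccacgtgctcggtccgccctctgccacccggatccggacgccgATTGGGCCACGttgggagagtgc

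Library totals were 24.65 to 27.37 M counts for the high dose of ginseng and 27.37 to 29.87 M for vehicle, within the 19.45 to 30.87 M of all 60 libraries. The lowest total was replicate 1 of the Paeoniae Radix (peony) extract at 500 µg/mL. It had a count in 37765 genes, against 22528 to 23832 in every other library. That library entered the shared estimate of spread, and its effect on the calls was not tested. The sample codes place ginseng and licorice in set 3, poria in set 2 and vehicle in set A1, so set and treatment cannot be told apart against vehicle, while high against low dose lies within set 3. The titles of all 60 libraries read BatchA, and the labels do not say what a set stands for. Of 17 astroglial markers, 9 stood under 0.5 CPM (counts scaled to library size) in both groups, among them GFAP, S100B, AQP4 and ALDH1L1. The astroglial label thus rested on the other members, such as VIM, CD44 and GJA1, which many cell types also express, and SLC1A3 at 25 CPM in ginseng high and 21.9 CPM in vehicle libraries. The summed astroglial markers were 8272 to 8409 CPM in ginseng high libraries and 8980 to 9370 CPM in vehicle libraries, with VIM at 5197 CPM in ginseng high and 6017 CPM in vehicle libraries. Neuronal markers summed to 184 to 195 CPM in ginseng high and 191 to 194 CPM in vehicle libraries. Oligodendrocyte and microglial markers summed to 146 to 147 CPM in ginseng high and 137 to 143 CPM in vehicle libraries, and epithelial, blood and endothelial markers to 251 to 265 CPM in ginseng high and 279 to 286 CPM in vehicle libraries. In the last sum KRT18 stood at 199 CPM in ginseng high and 224 CPM in vehicle libraries, while PTPRC, KDR and PECAM1 had higher means in ginseng high libraries. MOG, SOX10, AIF1, CD3E and HBB were at 0 in both groups. In bulk RNA, fewer cells that express a gene and less of its RNA per cell cannot be told apart.

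Between ginseng at 500 µg/mL and vehicle, many genes differed by a little and 2 genes by a lot. Of 17919 genes tested with edgeR's quasi-likelihood test across all genes, 1300 (7.25%) passed a Benjamini-Hochberg adjusted p of 0.05, the threshold used throughout, 547 higher (3.05%) and 753 lower (4.20%) in ginseng high libraries. The median size of a called change was 0.24 on the log2 scale. Only 24 of the called genes differed by 2-fold or more, and among the 11271 genes with at least 5 CPM in a group there were 4, TXNIP and ARRDC4 higher and HERPUD1 and MT1E lower. The other 20 were under 5 CPM in both groups. Every one of the 6 libraries moved the total by more than 1.5 times when left out: it was 859, 718 and 665 without ginseng high replicate 1, 2 or 3, and 623, 785 and 763 without vehicle replicate 1, 2 or 3. High against low dose, which lies within set 3, called 117 genes (0.653%), 40 higher and 77 lower. The comparison with vehicle crosses sample sets, and the part of the set in its 1300 calls was not tested.

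**Figure D1:**
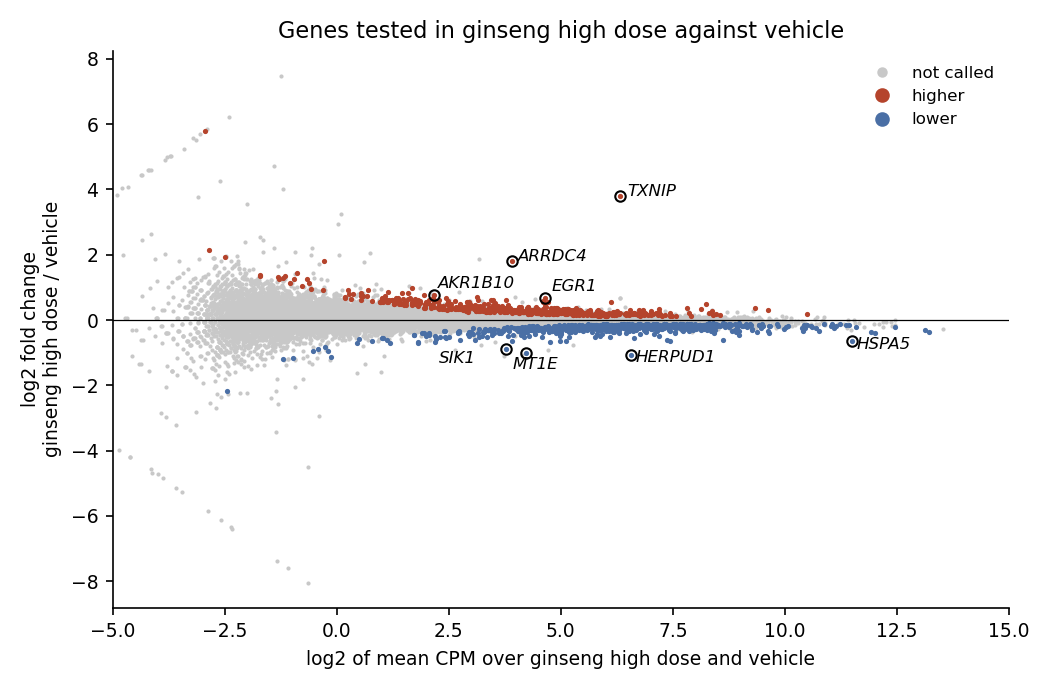
Log2 fold change of ginseng high dose over vehicle (y axis) against the log2 of the mean CPM over both groups (x axis) for the 17919 genes tested, with called genes in red (higher) and blue (lower) and 8 named genes circled. TXNIP, at 3.81, and ARRDC4, at 1.79, stand above the other genes of their level, and most called genes lie within 1 log2 unit of 0.

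The genes that answer to intracellular sugar held both of the largest rises among genes of at least 5 CPM. TXNIP (thioredoxin-interacting protein, an arrestin-fold protein that binds thioredoxin and limits glucose uptake; chromosome 1, 145992435 to 145996600, minus strand) had 149, 153 and 147 CPM in ginseng high libraries, against 11, 10.7 and 10.3 CPM in vehicle libraries. The groups were far apart, with replicates within a few percent of each other. This was a log2 fold change of 3.81 ± 0.08 (SE), or 14-fold (edgeR's quasi-likelihood test, adjusted p = 7.38e-40). ARRDC4, a related arrestin-domain protein that also restrains glucose transport (chromosome 15, 97960698 to 97973838, plus strand), had 24.4, 23.4 and 21.6 CPM, against 6.37, 7.01 and 6.64 CPM in vehicle libraries. Its log2 fold change was 1.79 ± 0.09, 3.47-fold (adjusted p = 4.07e-22). Their paralogue ARRDC3, which controls receptor trafficking, rose by a smaller amount, at 77.0 ± 5.9 CPM in ginseng high and 65.5 ± 3.0 CPM in vehicle libraries (SD, n = 3 each; log2 fold change 0.23 ± 0.05, adjusted p = 0.00254, and 0.0623 without ginseng high replicate 2).

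The sensors themselves moved little. MLXIP, which encodes MondoA, had 50.1, 51.8 and 53 CPM in ginseng high and 57.3, 56.4 and 60.6 CPM in vehicle libraries, a log2 fold change of -0.17 ± 0.06 just past the threshold (adjusted p = 0.0489); the call was lost in each of the 6 fits that left out 1 library. MLX was at 62.7 ± 2.8 CPM in ginseng high and 59.2 ± 0.52 CPM in vehicle libraries (log2 fold change 0.08 ± 0.05, adjusted p = 0.323). MLXIPL was barely detected, at 0.0735 to 0.12 CPM in ginseng high and 0.0708 to 0.225 CPM in vehicle libraries. Of the 8 glucose-sensing genes tested, 3 rose and 1 fell, beside 3.05% higher and 4.20% lower of all genes, and their median log2 fold change was 0.15, beside 0.010 over all genes tested. ARRDC2 and KLF10, the other members, gave 0.16 ± 0.08 and 0.14 ± 0.06 and did not pass. KLF10 was called higher with the 2 groups fitted alone (edgeR, adjusted p = 0.00838).

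The rise of TXNIP was concentrated at the top of the dose range. TXNIP averaged 10.7 ± 0.33 CPM in vehicle, 11.5 ± 1.4 CPM at 20 µg/mL, 18.1 ± 0.59 CPM at 100 µg/mL and 150 ± 3.1 CPM at 500 µg/mL (SD, n = 3 each). Medium against vehicle gave a log2 fold change of 0.76 ± 0.09 (adjusted p = 5.09e-07) and low against vehicle 0.10 ± 0.10 (adjusted p = 0.751). ARRDC4 was 6.67 ± 0.32 CPM in vehicle, 6.11 ± 0.46 CPM at the low, 7.83 ± 0.12 CPM at the medium and 23.2 ± 1.4 CPM at the high dose, and only the high dose was called against vehicle. High against low dose, a comparison within one sample set that shares the ginseng high libraries with the main one, gave 3.71 ± 0.08 for TXNIP and 1.92 ± 0.09 for ARRDC4 (adjusted p = 2.45e-39 and 4.43e-23).

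**Figure D2:**
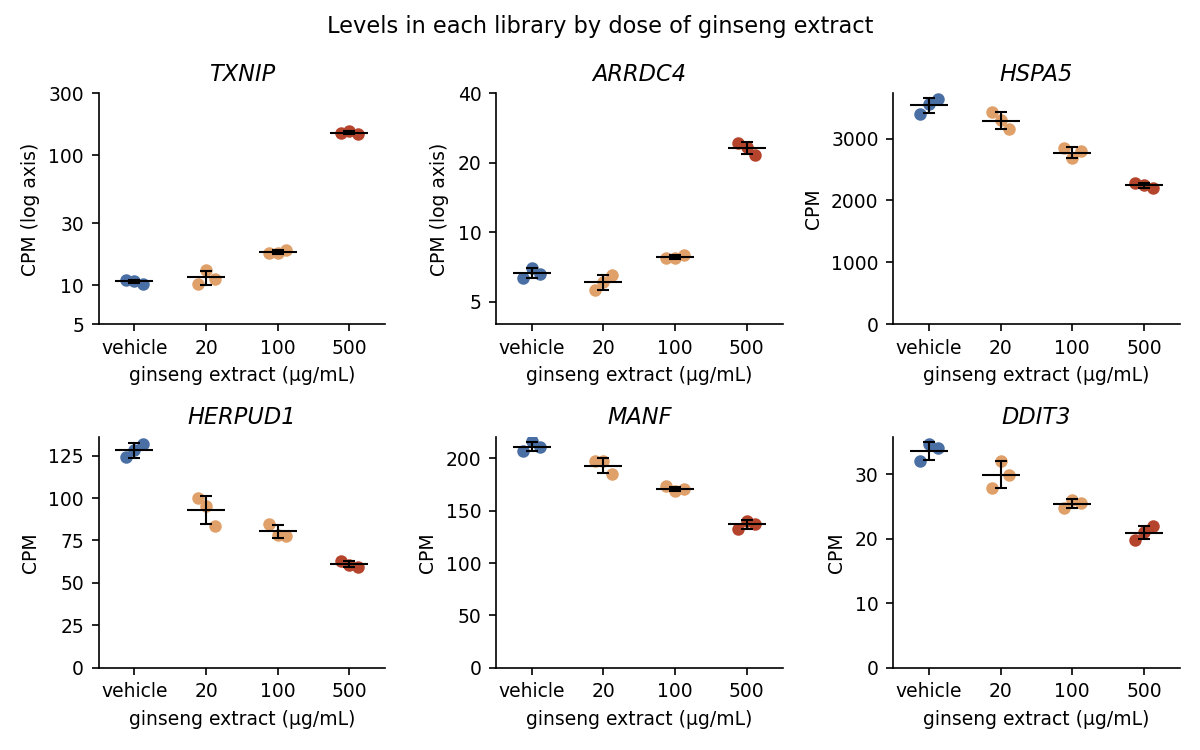
CPM of 6 genes in each library (points) with the mean and SD (bars) of 3 libraries, from vehicle on the left through 20, 100 and 500 µg/mL of ginseng extract; the axes of TXNIP and ARRDC4 are logarithmic. TXNIP and ARRDC4 rise mainly between 100 and 500 µg/mL, while the means of HSPA5, HERPUD1, MANF and DDIT3 are lower at each higher dose. The vehicle libraries are of sample set A1 and the ginseng libraries of set 3.

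Across the 22 groups of the series, TXNIP was higher than after ginseng at its high dose in 1 group only, poria at 500 µg/mL, with 206 ± 5.3 CPM. The water extract of Angelicae Gigantis Radix (angelica) at 500 µg/mL, of sample set 4 and also after 24 h, came next below ginseng with 59.2 ± 2.3 CPM (n = 2). The ranges of these groups and of ginseng high, at 147 to 153 CPM, did not overlap. ARRDC4 had the same top order, with 32.9 ± 2.2 CPM after poria, 23.2 ± 1.4 CPM after ginseng and 14.0 ± 2.6 CPM after angelica. Licorice at the same dose had 5.74 ± 0.46 CPM of TXNIP, a log2 fold change of 4.71 ± 0.09 for ginseng over licorice (adjusted p = 1.26e-42), in a comparison where 17.0% of genes were higher and 17.2% lower in ginseng libraries.

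Genes of protein folding in the ER were lower at the high dose. Of 20 tested members of the list of ER chaperones and unfolded protein response genes, 15 fell and none rose, and all 20 fold changes were below 0 with a median of -0.28, beside 4.20% of genes lower and a median of 0.010 over all genes tested. The count stayed at 15 in every fit that left out 1 library and ran from 15 to 18 over all alternatives tried.

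HSPA5 (BiP, the main ER chaperone; chromosome 9, 125234853 to 125241330, minus strand), whose promoter with its ER stress element is shown above, had 2282, 2256 and 2198 CPM in ginseng high libraries and 3404, 3560 and 3641 CPM in vehicle libraries. The groups did not overlap, and the replicates of each lay close together. The log2 fold change was -0.65 ± 0.05 (adjusted p = 3.04e-13). HERPUD1, an ER membrane protein that brings misfolded proteins to degradation (chromosome 16, 56932048 to 56944863, plus strand), had the largest fall of the genes of at least 5 CPM. It had 62.8, 60.7 and 59.5 CPM in ginseng high libraries, against 124, 128 and 132 CPM in vehicle libraries, a log2 fold change of -1.07 ± 0.12 (adjusted p = 5.89e-08). Within set 3, high against low dose gave a smaller fall of HERPUD1, at -0.61 ± 0.12 (adjusted p = 0.00503). MANF, a secreted ER-stress-induced protein first known as a neurotrophic factor, had 132, 140 and 137 CPM, against 207, 216 and 211 CPM in vehicle libraries (log2 fold change -0.63 ± 0.07, adjusted p = 3.77e-09). DNAJB9, a co-chaperone of BiP, fell by 0.64 ± 0.09 on the log2 scale, and XBP1, the factor spliced by IRE1, fell by 0.38 ± 0.06.

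The abundant lumenal proteins fell by less but tightly. HSP90B1 (GRP94) averaged 1197 ± 17 CPM in ginseng high and 1515 ± 21 CPM in vehicle libraries (SD, n = 3 each; log2 fold change -0.34 ± 0.04). The lectin chaperone CALR averaged 1547 ± 19 CPM in ginseng high and 1937 ± 31 CPM in vehicle libraries (log2 fold change -0.32 ± 0.04), and its membrane partner CANX gave -0.20 ± 0.04. The disulfide isomerases PDIA4, PDIA3 and PDIA6 gave -0.37, -0.25 and -0.17, each with an SE of 0.04, and the BiP exchange factor HYOU1 gave -0.37 ± 0.05. SEL1L and SYVN1, partners in ER-associated degradation, gave -0.28 ± 0.05 and -0.29 ± 0.07, and the co-chaperone DNAJB11 gave -0.27 ± 0.05. The 5 members that did not pass were DNAJC3 (-0.22 ± 0.08), SDF2L1 (-0.21 ± 0.12), CRELD2 (-0.15 ± 0.07), the sensor ATF6 (-0.04 ± 0.05) and the mannosidase-like EDEM1, at -0.00 ± 0.05. With the 2 groups fitted alone, DNAJC3, SDF2L1 and CRELD2 were called lower (edgeR, adjusted p = 7.78e-06, 0.00194 and 0.0049). DNAJC3 was also called without the filter on low counts and with a replicate block, and SDF2L1 without the filter. The members with either ER motif in the promoter window included both called and uncalled genes.

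Mean levels of the leading ER genes were lower at each higher dose. HSPA5 averaged 3535 ± 120 CPM in vehicle, 3291 ± 139 CPM at 20, 2775 ± 84 CPM at 100 and 2246 ± 43 CPM at 500 µg/mL. MANF went in the same order, with 211 ± 4.5, 193 ± 6.9, 171 ± 1.9 and 137 ± 4.2 CPM. HERPUD1 had 128 ± 4.3 CPM in vehicle, 93.0 ± 8.4 CPM at the low, 80.3 ± 4.1 CPM at the medium and 61.0 ± 1.7 CPM at the high dose. Licorice, also of set 3, had HERPUD1 means below vehicle too, at 94.4, 104 and 104 CPM with rising dose. So did every other extract group of the series. How much of the HERPUD1 fall against vehicle belongs to the sample set was not tested. Of the 20 genes, 12 were lower at the high than at the low dose, where 0.430% of all genes were lower and 0.223% higher. Medium against vehicle called 8 lower, where 0.402% of all genes were lower and 0.167% higher. Low against vehicle called none of the 20 (edgeR), with 3 at an unadjusted p under 0.05 and 1 called lower by DESeq2, where 0.374% of all genes were lower and 0.218% higher.

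**Figure D3:**
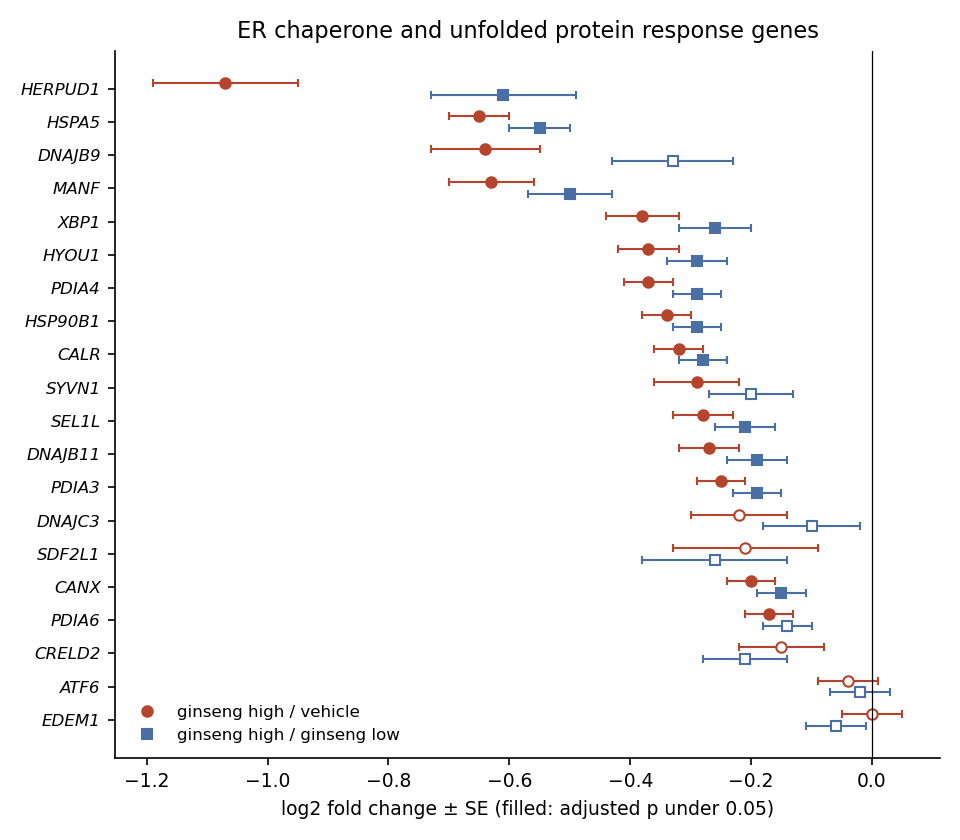
Log2 fold changes ± SE (x axis) of the 20 tested ER chaperone and unfolded protein response genes for ginseng high dose over vehicle (circles) and over ginseng low dose (squares); filled symbols passed an adjusted p of 0.05. All circles lie at or left of 0, with 15 filled against vehicle and 12 filled against the low dose.

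The genes downstream of ATF4, the factor that the PERK arm and amino acid shortage both raise, were mixed. Of 28 tested, 10 fell and 3 rose, beside 4.20% lower and 3.05% higher of all genes, with a median of -0.09; the number that fell was 6 without ginseng high replicate 1 and 7 or 8 without any other library. DDIT3 (CHOP, a factor linked to cell death under prolonged stress) had 19.8, 21.0 and 21.9 CPM in ginseng high libraries, against 32.0, 34.7 and 34.0 CPM in vehicle libraries (log2 fold change -0.68 ± 0.08, adjusted p = 6.19e-08). PPP1R15A (GADD34), which undoes the translation block set by PERK, had 52.8, 57.4 and 60 CPM in ginseng high and 84.4, 79.0 and 80.0 CPM in vehicle libraries (log2 fold change -0.52 ± 0.05, adjusted p = 5.13e-10). ATF4 itself gave -0.25 ± 0.05. GDF15, a stress-induced secreted factor, was low in both groups, at 2.7 ± 0.34 CPM in ginseng high and 4.36 ± 0.75 CPM in vehicle libraries (log2 fold change -0.69 ± 0.14, adjusted p = 0.000775). Of the genes of amino acid supply, the transporter SLC7A5 gave -0.41 ± 0.04 and asparagine synthetase ASNS gave -0.19 ± 0.05 (no call without ginseng high replicate 1 or 3 or vehicle replicate 1 or 2). TRIB3 and CHAC1, both known to rise under ER stress, were at -0.09 ± 0.10 and -0.06 ± 0.19 and did not pass. The rises were DDIT4 (REDD1, an inhibitor of mTORC1; 0.56 ± 0.09), the glutamine transporter SLC38A2 (0.15 ± 0.05, no call in the 6 fits without 1 library except that without ginseng high replicate 3) and the cystine transporter SLC7A11 (0.32 ± 0.07), which is also a target of NRF2.

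NRF2 targets, the genes of glutathione, thioredoxin and quinone metabolism that rise under oxidants and electrophiles, rose in part. Of 24 tested, 9 rose and none fell, beside 3.05% of all genes higher, but the median was 0.07, close to 0. The count of rises was 6 without ginseng high replicate 1 or 2 or vehicle replicate 1 or 2. NQO1, a quinone reductase, had 164, 160 and 164 CPM in ginseng high libraries, against 131, 129 and 128 CPM in vehicle libraries (log2 fold change 0.33 ± 0.05, adjusted p = 7.66e-06). The aldo-keto reductase AKR1B10 had 5.49, 5.25 and 6.21 CPM, against 3.15, 3.65 and 3.15 CPM in vehicle libraries (0.77 ± 0.11, adjusted p = 5.07e-06). Its relatives AKR1C1, AKR1C2 and AKR1C3 gave 0.43 ± 0.07, 0.43 ± 0.10 and 0.60 ± 0.18, the last without a call in 5 of the 6 fits that left out 1 library (all but that without ginseng high replicate 1). These copies are alike in sequence and can share reads, so their separate levels are uncertain. TXNRD1, thioredoxin reductase, rose by 0.20 ± 0.05 (adjusted p = 0.00592, and 0.0623 without ginseng high replicate 1). The catalytic subunit of glutathione synthesis, GCLC (-0.04 ± 0.05), the ferritin chains FTH1 (-0.12 ± 0.06) and FTL (-0.11 ± 0.09) and heme oxygenase HMOX1 (-0.12 ± 0.07) did not pass. FTH1 and HMOX1 were called lower with the 2 groups fitted alone (adjusted p = 0.00123 and 0.0157). SQSTM1, also NRF2-regulated but counted in the lysosomal list and not among the 24, fell (-0.33 ± 0.04). Of the 24, 5 were higher at the high than at the low dose, beside 0.223% of all genes, among them NQO1 (0.23 ± 0.05) and TXNRD1 (0.23 ± 0.05). NQO1 and CYP1B1 (0.28 ± 0.06) were the 2 of 7 aryl hydrocarbon receptor targets that rose, while CYP1A1, the classic target, was at 0.67 ± 0.22 and did not pass (adjusted p = 0.0544, but 0.0367 without vehicle replicate 2, 0.0494 with a replicate block and 0.039 with the 2 groups fitted alone).

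Antioxidant genes differed between ginseng and poria, the 2 extracts with the highest TXNIP. At 500 µg/mL, 0.580% of genes were higher and 0.686% lower after ginseng than after poria. Of the 24 NRF2 targets, 18 were lower after ginseng, none was higher, and the median was -0.36. HMOX1 averaged 77.3 ± 3.3 CPM after ginseng and 148 ± 6.8 CPM after poria (log2 fold change -0.94 ± 0.07, adjusted p = 2.43e-14), and NQO1 averaged 163 ± 2.3 CPM after ginseng and 254 ± 4.1 CPM after poria (-0.64 ± 0.05). Of the 20 ER genes, none was called between the extracts, none reached an unadjusted p under 0.05 and none was called by DESeq2, and HSPA5 gave 0.07 ± 0.05. TXNIP and ARRDC4 were lower after ginseng, by 0.46 ± 0.06 and 0.51 ± 0.08 on the log2 scale. Of 16 hypoxia targets, 8 were higher after ginseng, among them the mitophagy receptor BNIP3 at 0.52 ± 0.05. Against vehicle, 3 of these 16 were higher after ginseng and none was lower, beside 3.05% higher and 4.20% lower of all genes. That count of rises was 0 to 1 in the fits without 1 library. Poria lies in another sample set, so set and extract cannot be told apart here.

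**Figure D4:**
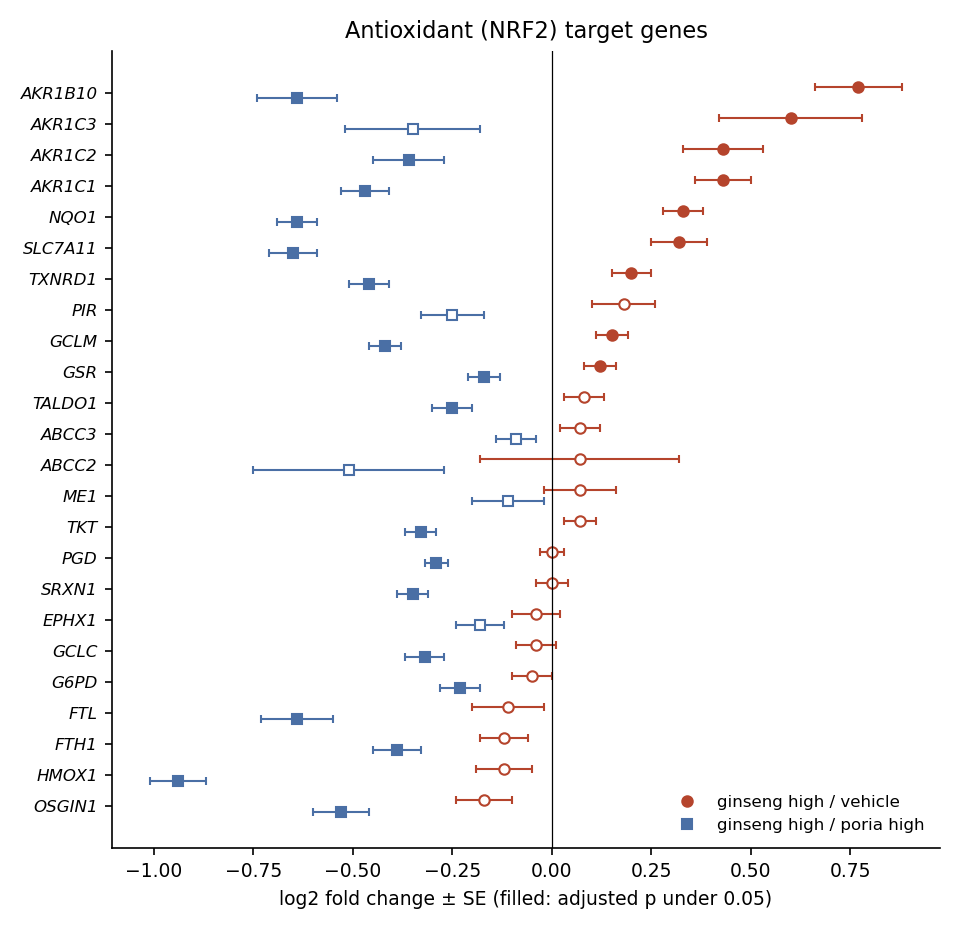
Log2 fold changes ± SE (x axis) of the 24 tested NRF2 targets for ginseng high dose over vehicle (circles) and over poria high dose (squares); filled symbols passed an adjusted p of 0.05. Against vehicle 9 genes were higher and none lower, and against poria 18 were lower.

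Genes of the actin cytoskeleton and of the mechanically driven factors YAP and SRF were lower. Of 18 tested, 10 fell and none rose, beside 4.20% lower and 3.05% higher of all genes, with a median of -0.26. CCN2 (connective tissue growth factor) had 120, 135 and 140 CPM in ginseng high libraries, against 197, 209 and 197 CPM in vehicle libraries (log2 fold change -0.61 ± 0.11, adjusted p = 0.000321). The groups did not overlap. The smooth muscle proteins TAGLN, MYL9 and ACTA2 gave -0.35 ± 0.07, -0.32 ± 0.07 and -0.28 ± 0.06, and the receptor kinase AXL gave -0.27 ± 0.04. CCN1, a close relative of CCN2, gave -0.06 ± 0.12 and did not pass. Of the 18 genes, 2 were lower at the high than at the low dose, among them AXL, where 0.430% of all genes were lower. At the low dose 2 of them, THBS1 included, were lower than in vehicle, where 0.374% of all genes were lower. At an unadjusted p under 0.05 (edgeR), 11 were lower and none higher at the low dose than in vehicle. By the same cut, 12 were lower and 1 higher at the high dose than in vehicle. The list median was -0.15 for low dose against vehicle and -0.07 for high against low dose. Set and treatment cannot be told apart against vehicle. CCN2 averaged 201 ± 7 CPM in vehicle, 151 ± 8.7 CPM at the low, 152 ± 8.3 CPM at the medium and 132 ± 10 CPM at the high dose. The summed fibroblast and mural markers, of which 1 of 10 stood under 0.5 CPM, were 932 to 942 CPM in ginseng high and 1017 to 1019 CPM in vehicle libraries. THY1 made up most of that gap, with 451 CPM in ginseng high and 531 CPM in vehicle libraries, while PDGFRB, TWIST1, TWIST2, PRRX1 and RGS5 had higher means in ginseng high libraries, and the median log2 fold change of the 9 markers tested was 0.04. The part of these markers in the result was not tested.

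Metallothioneins, small zinc-binding proteins that rise with free metal ions and glucocorticoids, fell in 3 of the 7 list members tested, beside 4.20% lower of all genes. MT1E had 11.9, 12.5 and 12.8 CPM in ginseng high libraries, against 25.7, 25.7 and 23.0 CPM in vehicle libraries (log2 fold change -1.0 ± 0.12, adjusted p = 1.97e-07). MT1X gave -0.65 ± 0.09 and MT2A -0.62 ± 0.12. The zinc exporter SLC30A1 and the metal-sensing factor MTF1, both at -0.12, did not pass. SLC30A1 was called lower with the 2 groups fitted alone (edgeR, adjusted p = 0.04). The members are near copies that can share reads, so the levels of single genes are uncertain. MT1E and MT1X were also lower at the high than at the low dose, where 0.430% of all genes were lower, at -0.69 ± 0.12 and -0.49 ± 0.09, while MT2A, at -0.26 ± 0.12, did not pass there.

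Of 25 genes of cholesterol synthesis and uptake, 7 fell and none rose, beside 4.20% lower of all genes. INSIG1, which holds the cholesterol sensor SCAP in the ER, had 129, 122 and 116 CPM in ginseng high libraries, against 168, 171 and 173 CPM in vehicle libraries (log2 fold change -0.48 ± 0.05, adjusted p = 2.21e-09). The early enzyme HMGCS1 gave -0.27 ± 0.05. INSIG1 was the one member lower at the high than at the low dose (-0.24). Of 25 lysosomal genes 6 fell, beside the same 4.20%, though the count was 1 to 4 in the fits without 1 library (2, 1 and 3 without ginseng high replicate 1, 2 or 3, and 2, 2 and 4 without vehicle replicate 1, 2 or 3). The autophagy receptor SQSTM1 (p62), also an NRF2-regulated gene, led them at 443 ± 3.7 CPM in ginseng high and 559 ± 8.6 CPM in vehicle libraries (log2 fold change -0.33 ± 0.04, adjusted p = 2.1e-07).

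Groups of basic cell functions differed in how many members were called, beside 4.20% lower and 3.05% higher of all genes. None of 25 cytosolic ribosomal protein genes was called by edgeR, with 5 lower at an unadjusted p under 0.05 and 1 called lower by DESeq2, and their median was 0.00. None of 13 mitochondrially encoded genes was called by edgeR or DESeq2 (2 lower at an unadjusted p under 0.05), although 12 of 13 fold changes were below 0 with a median of -0.18. Mitochondrial genes took 4.99 to 5.10% of counts in ginseng high and 5.42 to 5.90% in vehicle libraries. Of 24 S-phase genes 1 rose and 1 fell. Of 24 mitosis genes 4 fell, a count that was between 0 and 3 in each of the 6 fits that left out 1 library. Of 16 genes of nucleolar ribosome biogenesis 4 fell and none rose (5 lower by DESeq2), and all 16 fold changes were below 0 with a median of -0.09. That count was 2 without ginseng high replicate 1 or 3 or vehicle replicate 1 or 2, and 3 without ginseng high replicate 2 or vehicle replicate 3. WDR43 and RRP12, both factors of ribosome assembly, gave -0.22 and -0.20. Of 24 interferon-response genes, IFIT3 alone fell, at -0.42 ± 0.13 (no call without any 1 library except vehicle replicate 3), and of 19 p53 targets 1 fell. The mitosis median was -0.06, and it was -0.09 for low dose against vehicle, where 2 fell beside 0.374% of all genes. High against low dose, within set 3, called no mitosis gene (edgeR or DESeq2). The median there was 0.03, with 3 higher at an unadjusted p under 0.05. The nucleolar genes had no call by either method there or in low against vehicle, with medians of -0.04 and -0.07. At an unadjusted p under 0.05, 2 and 4 of them were lower.

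**Figure D5:**
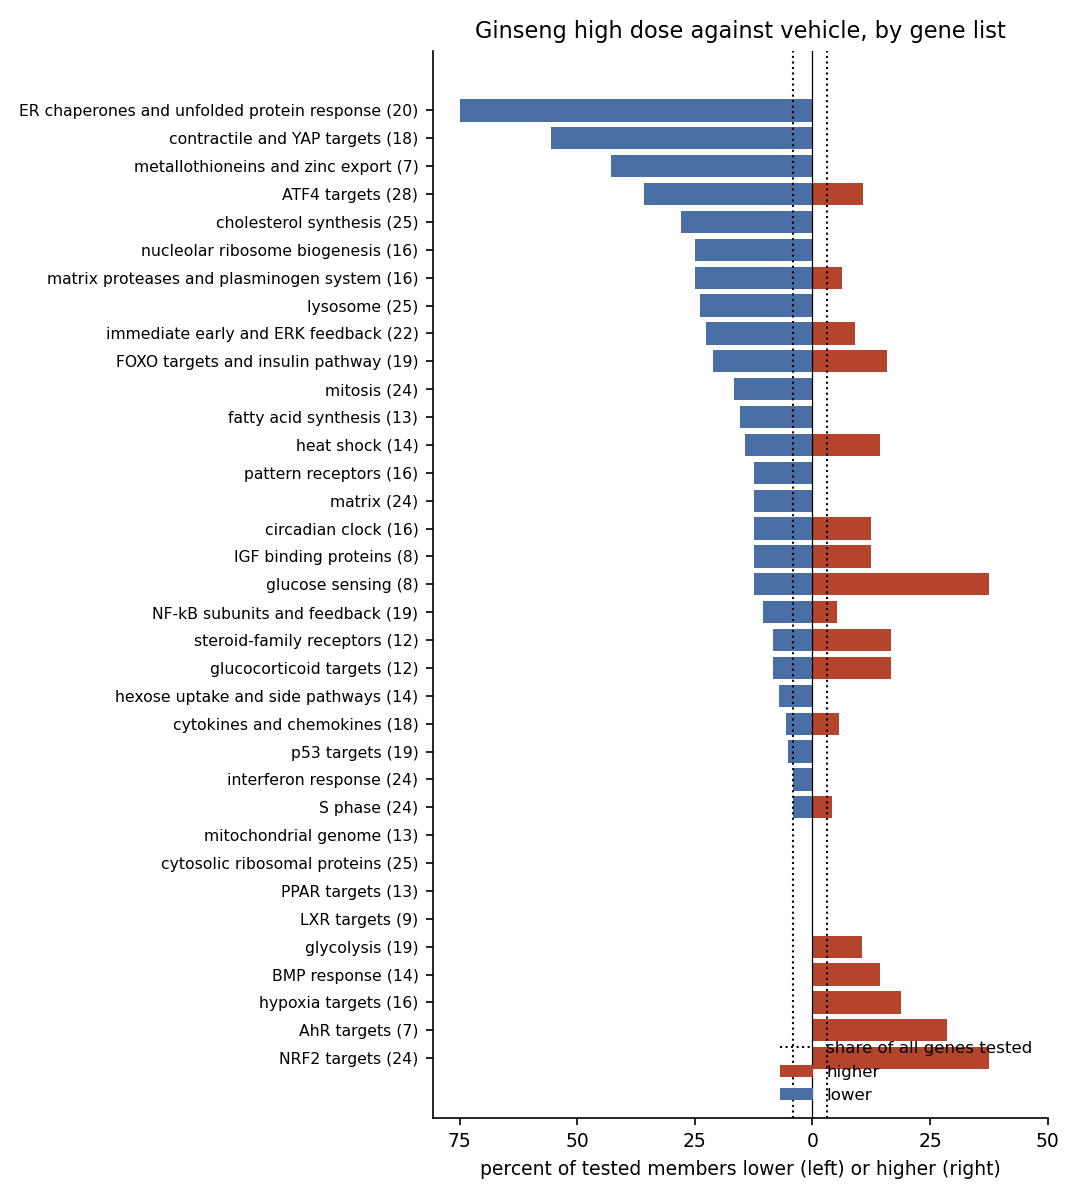
Percent of the tested members of each gene list (number of members in brackets) that were lower (blue, left) or higher (red, right) in ginseng high dose against vehicle; dotted lines mark the 4.20% lower and 3.05% higher of all genes tested. The ER list has the largest share lower, 15 of 20, and the glucose-sensing list, at 3 of 8, and the NRF2 list, at 9 of 24, have equal shares higher.

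The rule for the 10 largest changes each way among genes of at least 5 CPM named, beside TXNIP, ARRDC4 and AKR1B10, also PPFIA4, FER1L4, EGR1, TNFRSF25, RASL11A, ANKZF1 and KBTBD7 on the rising side. PPFIA4, a liprin scaffold protein, had 11.3, 9.85 and 11.4 CPM in ginseng high libraries, against 5.88, 7.40 and 6.72 CPM in vehicle libraries (log2 fold change 0.70 ± 0.12, adjusted p = 8.45e-05). EGR1, an immediate early transcription factor, varied more, with 24.2, 35.2 and 32.3 CPM, against 18.9, 20.4 and 18.4 CPM in vehicle libraries (0.67 ± 0.16, adjusted p = 0.00723, 0.068 without ginseng high replicate 2 and 0.0551 with the 2 groups fitted alone). Of 22 immediate early and ERK feedback genes tested, 2 rose and 5 fell, beside 3.05% higher and 4.20% lower of all genes. Their median was -0.06. Without 1 library, 0 to 2 of them rose and 2 to 5 fell. ANKZF1, a factor that clears stalled ribosomal products, gave 0.61 ± 0.09. TNFRSF25 (0.66 ± 0.16) lost its call without ginseng high replicate 3 (adjusted p = 0.0538) or vehicle replicate 1 (0.0562), and KBTBD7 (0.60 ± 0.13) without vehicle replicate 1 (0.0598). High against low dose, within set 3, called none of these genes from PPFIA4 to KBTBD7. Their log2 fold changes there ran from 0.12 (TNFRSF25, edgeR adjusted p = 0.89) to 0.55 (EGR1, 0.123). ANKZF1 was already higher at the low dose than in vehicle, at 14.3 and 10.8 CPM (adjusted p = 0.0185). The part of the set in these rises was not tested.

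On the falling side the rule named HERPUD1, MT1E, SIK1, DDIT3, UCA1, HSPA5, MT1X, DNAJB9, MANF and S1PR1, of which 5 are ER or ER-stress genes. SIK1, a kinase induced by cyclic AMP, had 9.78, 10.2 and 8.97 CPM in ginseng high libraries, against 18.9, 16.9 and 17.1 CPM in vehicle libraries (log2 fold change -0.87 ± 0.10, adjusted p = 4.23e-09); its near-identical copy SIK1B makes the level uncertain. S1PR1, a receptor for sphingosine-1-phosphate, had 4.93, 5.36 and 5.62 CPM, against 8.65, 7.05 and 8.86 CPM in vehicle libraries (-0.62 ± 0.11, adjusted p = 6.83e-05). UCA1, a long noncoding RNA, gave -0.67 ± 0.15 (adjusted p = 0.00398, and 0.1 without vehicle replicate 3).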

How the data were processed

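SW1783 cells were profiled by RNA-seq in 60 libraries of 22 groups, and 6 libraries make up the main comparison. Per the submitters' processing notes, the tools included the aligner STAR 2.7.3a, the counter RSEM 1.3.3, the trimmer Trim Galore 0.6.5 and the quality check FastQC 0.11.9. Whether counting used strand was not given in those notes or the labels, so reads of a gene and of an antisense partner may be mixed. The authors deposited RSEM expected counts for 60675 genes, of which 57055 were matched to GENCODE 29 (GRCh38) for symbols and positions. The deposited table has 279 columns of samples, of which 219 were not used. Expected counts were rounded to whole numbers (9.5% were not whole within 1e-06).

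Genes with low counts were removed with edgeR's filterByExpr (minimum count 10, minimum total 15), which left 17919. edgeR 4.0.16 in R 4.3.3 fitted its quasi-likelihood model with TMM scaling to all 22 groups, with Benjamini-Hochberg adjustment over all genes and a threshold of 0.05. CPM use TMM-scaled library sizes and are not per length, so levels are compared within a gene. Replicates of a group are numbered in the labels, and no pair of libraries held identical values. The fit was tested on simulated data.

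Named genes were the 10 largest changes each way among called genes of at least 5 CPM whose groups do not overlap, up to 3 called members of lists rich in calls, and members of the lists described. The lists, 40 with 674 genes (633 tested), and all comparisons were chosen with earlier results of these data known. Alternatives were RLE scaling, no filter on low counts, a replicate block, a fit of the 2 groups alone, DESeq2 1.42.0 and leaving out each library. Some named genes are not reported here.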

Additional observations from a re-analysis of the deposited data

How the results depend on the processing

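Ginseng high against vehicle gave 1244 higher and 1731 lower genes when the 2 groups were fitted alone, and 252 to 339 higher and 371 to 520 lower without 1 library. High against low dose gave 83 and 142 without the filter, 21 and 38 with the groups fitted alone, and 16 to 26 higher and 40 to 58 lower without 1 library. Medium against vehicle gave 142 and 170 without the filter, 49 and 120 with a replicate block, 229 and 371 with the groups alone, 131 lower with DESeq2, and 5 to 23 higher and 14 to 56 lower without 1 library. Low against vehicle gave 168 and 160 without the filter, 73 and 115 with a replicate block, 31 lower with the groups alone, 41 higher and 137 lower with DESeq2 (23.0% higher, against 36.8% in the edgeR fit), and 1 to 144 higher and 7 to 262 lower without 1 library, the largest counts without ginseng low replicate 1. Ginseng against poria gave 221 and 276 with the groups alone, and 47 to 64 higher and 68 to 86 lower without 1 library. Against licorice no count moved by over 1.5 times. The cause of these shifts was not tested.

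The replicate block gave 607 higher and 813 lower genes for ginseng high against vehicle. Over all genes tested, the deviations of same-numbered libraries from their group means had correlations of -0.07 to 0.05. A correlation over all genes cannot show whether some genes share a replicate effect, which was not tested.

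Over 133 named genes and 11 alternatives, 1260 of 1463 values kept their call and direction, 184 of 46 genes lost the call, 14 of 9 genes gained it and 5 turned sign. The last were genes without a call, which ran without 1 library from -0.22 to 0.04 (CHAC1), -0.12 to 0.01 (CCN1) and -0.02 to 0.04 (EDEM1), with 0.01 for EDEM1 without vehicle replicate 1 or 2. TXNIP stayed between 3.79 and 3.83. Most changes of 2-fold or more lay among genes under 5 CPM, where counts are few.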

Other observations

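CXCL8 and PTGS2, both inflammatory genes, were lower than in vehicle at the lowest dose, while at the highest they did not pass the test. CXCL8, a neutrophil-attracting chemokine, averaged 11.1 ± 1.4 CPM in vehicle, 7.48 ± 0.42 CPM at 20, 9.34 ± 0.68 CPM at 100 and 12.1 ± 0.73 CPM at 500 µg/mL of ginseng extract (SD, n = 3 each). Low against vehicle gave a log2 fold change of -0.56 (edgeR, adjusted p = 0.00468), high against low gave 0.69 ± 0.11 (adjusted p = 6.93e-05) and high against vehicle gave 0.13 ± 0.10 (adjusted p = 0.498). PTGS2, the inducible prostaglandin synthase, averaged 87.9 ± 1.1, 62.6 ± 4.0, 74.6 ± 4.4 and 80.9 ± 7.2 CPM in the same order, and also differed between high and low dose (0.37 ± 0.08, adjusted p = 0.00575). By contrast, ICAM1, an adhesion molecule, and CCL2, a monocyte-attracting chemokine, were lower than vehicle by like amounts at each dose. ICAM1 averaged 72.0 ± 0.98 CPM in vehicle, 58.9 ± 3.4, 59.1 ± 1.4 and 56.9 ± 1.7 CPM with rising dose, and CCL2 averaged 36.0 ± 0.42, 27.5 ± 2.0, 27.4 ± 2.0 and 26.8 ± 1.2 CPM. At 500 µg/mL, ICAM1 and CCL2 averaged 59.8 ± 2.4 and 28.6 ± 3.2 CPM after poria, but 395 ± 17 and 69.8 ± 2.3 CPM after licorice. Vehicle lies in set A1 and ginseng in set 3. The part of the set in the differences of these inflammatory genes from vehicle was not tested. High against low dose lies within set 3.

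ID1, a target of bone morphogenetic protein signalling that blocks helix-loop-helix factors, had 351 ± 5.6 CPM in ginseng high and 252 ± 0.73 CPM in vehicle libraries (log2 fold change 0.48 ± 0.09, edgeR, adjusted p = 0.000424), and averaged 288 ± 21 and 312 ± 17 CPM at the low and medium dose. Neither of these doses was called against vehicle (adjusted p = 0.387 and 0.0984). Of 14 genes of the bone morphogenetic protein response, 2 rose and none fell, beside 3.05% higher and 4.20% lower of all genes. IGFBP1, a binder of insulin-like growth factors, had 27.1 ± 0.69 CPM in ginseng high and 21.6 ± 0.96 CPM in vehicle libraries (0.32 ± 0.08, adjusted p = 0.00983, and 0.0599 without vehicle replicate 3). Of 8 genes of such binding proteins, 1 rose and 1 fell. The fall was IGFBP3, at 566 ± 19 CPM in ginseng high and 632 ± 9.9 CPM in vehicle libraries (-0.16 ± 0.04, adjusted p = 0.00933, and 0.0872 without ginseng high replicate 3). CDKN1B (p27, a brake on the cell cycle) had 28.5 ± 0.76 CPM in ginseng high and 24.1 ± 0.82 CPM in vehicle libraries (0.24 ± 0.06, adjusted p = 0.00615). Of 19 tested genes of its list, FOXO targets and the insulin pathway, 3 rose and 4 fell, with FBXO32 at -0.34 ± 0.05. Within set 3, high against low dose called IGFBP1 higher (0.38 ± 0.08, adjusted p = 0.0114). It did not call ID1 (0.28 ± 0.09, adjusted p = 0.181) or CDKN1B (0.15 ± 0.06, adjusted p = 0.349). The part of the set in the differences of these genes from vehicle was not tested.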
